A study of Mus musculus with 20 samples.

Results

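Activity-induced immediate early genes are described here across the layers of the mouse retina, in dark and in light adaptation. The members are the genes whose only symbol on the array is one of 35 listed immediate early genes. All 35 were measured, each by 1 probe set, with Cyr61 found under its current symbol Ccn1. Of these, 33 passed the filter on dim probe sets and are among the 15057 genes tested. Nr4a3 and Maff did not pass: their intensities were 7.3 to 19.5 and 7.8 to 41.5 over all arrays.

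RNA came from C57BL/6 mice aged 7 to 8 weeks and was measured on 20 Affymetrix arrays after a two-cycle amplification that yields biotinylated cRNA. Mice were kept for 3 h in darkness (at most 0.4 lux) or for 6 h in light (450 lux). Laser capture microdissection, which cuts chosen areas out of a tissue section, gave 4 layers: photoreceptor (outer nuclear layer with outer and inner segments), inner nuclear, inner plexiform and ganglion cell, and undissected whole retina was also measured. There are 2 arrays for each of the 5 tissues in each adaptation, or 10 groups. The labels tie no array to an animal, give no count of animals per array and no hour of collection, so the p-values measure the spread between arrays, which may be technical.

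Immediate early genes are transcribed within minutes of a stimulus such as calcium entry or growth factor signalling, from promoters read by factors already present in the cell, and most of their transcripts are short-lived. Many encode transcription factors (the Fos and Jun partners of AP-1, the Egr zinc fingers, the Nr4a nuclear receptors), and others encode inhibitors of the signal itself, such as the Dusp phosphatases, or effectors at the synapse, such as Arc. In rodents, light onset is known to induce Fos in neurons of the inner retina, while darkness keeps photoreceptors depolarised.

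The promoter windows of 5 members are shown as examples, with Fos included as the best-known member. They run from 250 bases before to 50 bases after the annotated start (RefSeq, GRCm38.p6), 5′ to 3′ on the gene's strand. Capitals mark the cAMP response element of CREB in its full (TGACGTCA) or short (TGACG) form, or an EGR site (GCGNGGGCG), on either strand. The windows are those of Klf4 (chr4:55532426-55532725, minus strand), Junb (chr8:84978699-84978998, minus strand), Ccn1 (chr3:145649936-145650235, minus strand), Dusp1 (chr17:26508423-26508722, minus strand) and Fos (chr12:85473640-85473939, plus strand).
Klf4: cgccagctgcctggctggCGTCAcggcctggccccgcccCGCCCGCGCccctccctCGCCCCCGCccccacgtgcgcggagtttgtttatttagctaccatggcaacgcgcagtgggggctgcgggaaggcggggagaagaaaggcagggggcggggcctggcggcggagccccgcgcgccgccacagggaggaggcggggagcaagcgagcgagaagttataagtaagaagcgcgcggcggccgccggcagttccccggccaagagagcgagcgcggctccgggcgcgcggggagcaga
Junb: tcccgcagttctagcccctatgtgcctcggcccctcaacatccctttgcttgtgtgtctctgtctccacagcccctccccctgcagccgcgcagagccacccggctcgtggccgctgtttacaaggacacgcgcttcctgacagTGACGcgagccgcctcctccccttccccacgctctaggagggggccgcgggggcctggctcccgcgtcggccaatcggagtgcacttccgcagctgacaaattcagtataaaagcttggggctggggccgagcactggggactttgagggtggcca
Ccn1: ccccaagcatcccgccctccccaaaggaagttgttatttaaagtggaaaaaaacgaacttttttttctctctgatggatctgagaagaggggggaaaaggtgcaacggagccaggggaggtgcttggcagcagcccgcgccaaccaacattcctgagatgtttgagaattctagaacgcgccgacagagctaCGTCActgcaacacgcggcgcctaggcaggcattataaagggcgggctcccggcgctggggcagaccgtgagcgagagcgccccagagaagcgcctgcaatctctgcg
Dusp1: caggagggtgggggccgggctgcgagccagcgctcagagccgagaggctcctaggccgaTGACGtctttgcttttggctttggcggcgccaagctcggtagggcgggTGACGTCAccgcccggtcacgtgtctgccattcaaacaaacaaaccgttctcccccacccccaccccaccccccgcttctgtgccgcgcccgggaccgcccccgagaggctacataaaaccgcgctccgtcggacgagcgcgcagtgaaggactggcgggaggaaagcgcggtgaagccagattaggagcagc
Fos: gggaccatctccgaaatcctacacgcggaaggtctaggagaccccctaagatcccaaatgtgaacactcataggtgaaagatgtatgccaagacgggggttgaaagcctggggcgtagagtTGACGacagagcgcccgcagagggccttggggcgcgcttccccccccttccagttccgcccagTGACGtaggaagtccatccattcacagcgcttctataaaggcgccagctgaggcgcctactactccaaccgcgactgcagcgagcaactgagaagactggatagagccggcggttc

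The short element, which lies inside the full one, stood in the window of 19 of the 29 members that have one in the table, against 23.0% of all 27025 genes. A gene was counted where any of its windows held the motif, and the 29 members have 41 windows, with 7 for Bdnf, 5 for Egr2 and 3 for Maff. By window, the short element stood in 22 of 41, against 20.8% of all 32851. Windows of a gene can overlap, as some of Egr2 do, so the same site can be counted more than once. The full element stood in 3 members (Btg2, Dusp1 and Maff), against 2.03% of all genes. An EGR site stood in 11 members, against 6.27% of all genes, and Klf4 held 2 of them. The CArG box, bound by Srf, stood in 4 members (Dusp5, Egr2, Srf and Zfp36), against 1.81% of all genes. The AP-1 site TGANTCA stood in 1 member, Bdnf, against 8.97% of all genes. All windows shown above hold the short element, but that of Jund held no marked site and that of Fosl2 an EGR site alone. These matches describe letters in the windows and were not set against the values below.

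Values are intensities on a linear scale as deposited, and differences are log2 values ± the fitted standard error. A gene is called where limma's adjusted p was under 0.05. Array medians were 37.5 to 40.8, so many members lay near the middle of the array. Median correlations with the arrays of other groups, across genes, were lowest for replicate 2 of the light-adapted whole retina (0.720), then for the light-adapted inner plexiform layer (0.736 and 0.770) and the dark-adapted whole retina (0.772 and 0.788). The other arrays were at 0.818 or above. The members averaged 5.10 to 5.32 (log2) in whole retina arrays, 6.05 and 6.02 in the light-adapted inner plexiform layer and 5.39 to 5.70 in the other dissected arrays. As a measure of background, probe sets of chemosensory receptor genes of the nose and tongue had array medians of 3.14 to 3.81 (log2). Y-linked probe sets had a median intensity of 192.25 to 306.2 in 5 light-adapted arrays (replicate 1 of the photoreceptor layer, inner nuclear layer and whole retina, and both of the ganglion cell layer) and of 8.6 to 25.05 in all others. The summed intensity of photoreceptor markers was 4770.5 to 5400.9 in the photoreceptor layer, and that of ganglion cell markers was 1701.4 to 2949.2 in the ganglion cell layer. Photoreceptor markers also summed to 776.1 to 1308.0 (dark) against 382.5 to 434.2 (light) in the inner nuclear layer. They summed to 555.4 to 962.1 in the inner plexiform layer and 374.5 to 1627.3 in the ganglion cell layer. Where this photoreceptor marker signal in other layers comes from, and whether it bears on the dark and light differences, was not tested. The inner plexiform layer holds mainly processes and synapses, with few cell bodies.

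Dark and light adaptation gave few differences among the members. Of the 33 tested, 1 was called in 1 tissue: Klf10, which fell in the dark-adapted inner plexiform layer (1.12% of all genes lower). No member was called in the photoreceptor layer (0.0465% of all genes called), the inner nuclear layer (0%), the ganglion cell layer (0.00664%), the whole retina (0.0266%) or the average over the 5 tissues (0.0133%). In limma's unadjusted test 1 member had p under 0.05 in the photoreceptor layer (1.49% of all genes), 1 in the inner nuclear layer (3.14%), 2 in the ganglion cell layer (4.08%), 1 in the whole retina (0.897%) and 6 in the average (6.11%). In the inner plexiform layer 10 had p under 0.05, against 18.7% of all genes, and the 1 call stands against 1.83% of all genes called. The test of whether the dark effect differed between tissues called 0 members (0.0266% of all genes), with 3 at an unadjusted p under 0.05 by limma (5.9% of all genes).

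Klf10, a zinc-finger factor known as a TGF-beta inducible gene, had intensities of 20.2 and 18.2 (dark) against 25.4 and 25.1 (light) in the whole retina and 24.4 and 32.5 (dark) against 15.3 and 30.5 (light) in the photoreceptor layer. Klf10 had 28.3 and 18.8 (dark) against 24.4 and 27.9 (light) in the inner nuclear layer, 20.7 and 24.6 (dark) against 50.5 and 88.6 (light) in the inner plexiform layer and 29 and 19.3 (dark) against 44.2 and 27.7 (light) in the ganglion cell layer. It was chosen after its values were seen. In the inner plexiform layer both dark arrays lay below both light arrays, and the difference was -1.57 ± 0.37, or 0.337 times the light level (adjusted p = 0.0427 by limma). The call was lost in 12 of 27 alternatives, with adjusted p-values of 0.0212 to 0.189 over all of them. Leaving out any 1 of the 4 arrays of this layer was among those 12, with adjusted p = 0.0914 and 0.189 without dark replicates 1 and 2, and 0.0538 and 0.157 without light replicates 1 and 2.

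Fos, the founding member of AP-1, had intensities of 19.6 and 18.6 (dark) against 33.3 and 24.5 (light) in the whole retina and 37.4 and 49.2 (dark) against 48.6 and 43.3 (light) in the photoreceptor layer. Fos had 35.7 and 31.6 (dark) against 37.8 and 46.4 (light) in the inner nuclear layer, 35.6 and 43.3 (dark) against 43.8 and 55.8 (light) in the inner plexiform layer and 52.1 and 29.6 (dark) against 39 and 45.8 (light) in the ganglion cell layer. Dark arrays lay below light arrays in the whole retina, the inner nuclear layer and the inner plexiform layer, and overlapped them in the other two tissues. Averaged over tissues the difference was -0.29 ± 0.13 (limma's unadjusted p = 0.0344, adjusted p = 0.781).

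Fosb, a close relative of Fos, had intensities of 61.9 and 53.5 (dark) against 59.4 and 68.5 (light) in the whole retina and 64.7 and 72.4 (dark) against 78.2 and 75.7 (light) in the photoreceptor layer. Fosb had 69 and 62.2 (dark) against 94 and 70.8 (light) in the inner nuclear layer, 55 and 65.4 (dark) against 49.8 and 64.1 (light) in the inner plexiform layer and 87.4 and 54 (dark) against 72.4 and 51.2 (light) in the ganglion cell layer. Dark and light arrays overlapped in the whole retina, the inner plexiform layer and the ganglion cell layer, and dark arrays were the lower ones elsewhere. Egr1, a zinc-finger factor widely used as a marker of neuronal activity, had intensities of 16 and 20.5 (dark) against 39.8 and 32.7 (light) in the whole retina and 29.3 and 26.6 (dark) against 28.4 and 23.6 (light) in the photoreceptor layer. Egr1 had 37.3 and 23.3 (dark) against 26.9 and 67.6 (light) in the inner nuclear layer, 24.9 and 33.6 (dark) against 61.9 and 39.2 (light) in the inner plexiform layer and 30.3 and 29.1 (dark) against 32.9 and 45.5 (light) in the ganglion cell layer. Its dark arrays lay below its light arrays in the whole retina, the inner plexiform layer and the ganglion cell layer. The whole retina difference was -0.99 ± 0.37 (limma's unadjusted p = 0.0165, adjusted p = 1) and the average over tissues was -0.51 ± 0.17 (adjusted p = 0.705). Neither passed the test.

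Arc, which acts in the removal of glutamate receptors from synapses, had intensities of 71.9 and 86.4 (dark) against 79.2 and 83 (light) in the whole retina and 84.3 and 93.7 (dark) against 100.4 and 86.7 (light) in the photoreceptor layer. Arc had 118.7 and 74.5 (dark) against 114.1 and 123.6 (light) in the inner nuclear layer, 91.5 and 92 (dark) against 71.3 and 79.1 (light) in the inner plexiform layer and 132.5 and 77 (dark) against 110.3 and 127 (light) in the ganglion cell layer. In the inner plexiform layer its dark arrays lay above its light arrays, and the groups overlapped everywhere else. Npas4, a factor induced in neurons by calcium entry, had intensities of 39 and 42.3 (dark) against 40.2 and 38.1 (light) in the whole retina and 45.9 and 45.8 (dark) against 49.7 and 45.9 (light) in the photoreceptor layer. Npas4 had 64.7 and 45.4 (dark) against 48.8 and 54.9 (light) in the inner nuclear layer, 37.8 and 47.3 (dark) against 43.2 and 47.3 (light) in the inner plexiform layer and 43.6 and 38.8 (dark) against 53 and 41.7 (light) in the ganglion cell layer. Its groups overlapped in every tissue, and it was not called in any comparison.

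Nr4a1, an orphan nuclear receptor, had intensities of 109 and 126.5 (dark) against 110.1 and 94 (light) in the whole retina and 145.8 and 188.9 (dark) against 88.6 and 103.1 (light) in the photoreceptor layer. Nr4a1 had 102.5 and 87.2 (dark) against 100.5 and 137.6 (light) in the inner nuclear layer, 115.3 and 110.5 (dark) against 103 and 81.7 (light) in the inner plexiform layer and 114.5 and 90 (dark) against 106.3 and 136 (light) in the ganglion cell layer. In the inner plexiform layer both dark arrays lay above both light arrays. The same held in the photoreceptor layer, where Nr4a1 was the one member with an unadjusted p under 0.05. The difference was 0.80 ± 0.23 (limma's unadjusted p = 0.00285, adjusted p = 1) and did not pass. Nr4a2, of the same family, ranged from 43.5 to 83.6 and was called in no comparison.

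**Figure D1:**
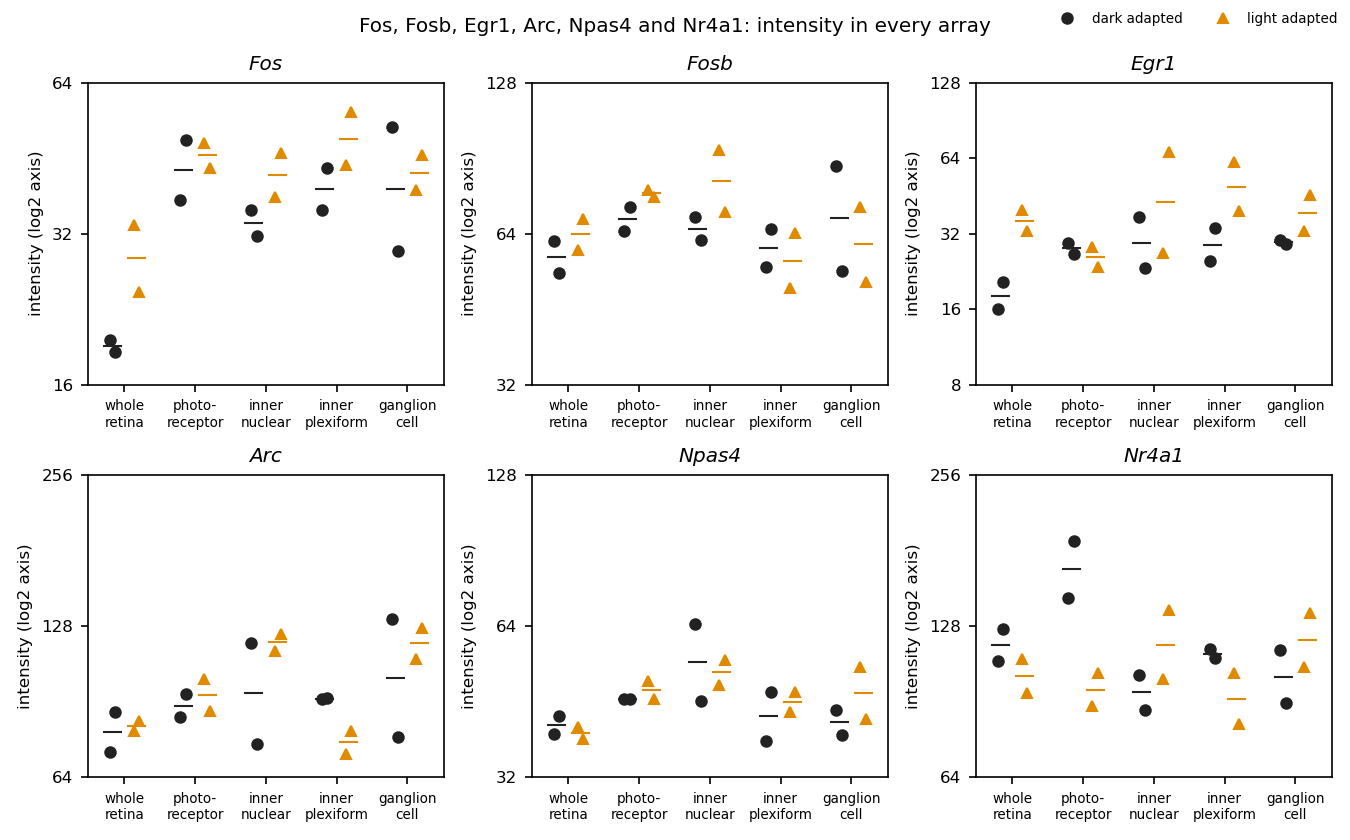
Intensity (vertical, log2 axis) of 6 well-known members in each tissue, dark-adapted (circles) left of light-adapted (triangles), 1 point per array and a line at the geometric mean of the 2 arrays. The pairs of Npas4 overlap in every tissue. Those of Nr4a1 stand apart in the photoreceptor layer, at 145.8 and 188.9 (dark) against 88.6 and 103.1 (light), and, less widely, in the inner plexiform layer.

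Among the inhibitors, Dusp1, a nuclear phosphatase that inactivates MAP kinases, had intensities of 66.2 and 57.6 (dark) against 73.1 and 74.4 (light) in the whole retina and 60.1 and 49.7 (dark) against 51.6 and 71.9 (light) in the photoreceptor layer. Dusp1 had 79.4 and 70.6 (dark) against 106.5 and 86.2 (light) in the inner nuclear layer, 58.7 and 50.2 (dark) against 95.6 and 93.2 (light) in the inner plexiform layer and 77.3 and 73.9 (dark) against 86.3 and 136.7 (light) in the ganglion cell layer. Values in every array are given because it had the members' smallest p in the average over tissues, a choice made after they were seen. Dark arrays lay below light arrays in every tissue except the photoreceptor layer, where they overlapped. The average difference was -0.42 ± 0.11 (limma's unadjusted p = 0.00103, adjusted p = 0.53) and that in the inner plexiform layer was -0.80 ± 0.24 (adjusted p = 0.0894). Neither passed the test.

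Gadd45b, a stress-inducible gene linked to DNA demethylation, ranged from 18.8 to 50.7 over all arrays and ran the other way in the ganglion cell layer, with 50.7 and 45.9 (dark) against 21.6 and 23.6 (light). The difference was 1.10 ± 0.28 (limma's unadjusted p = 0.00113, adjusted p = 1). In this layer both light arrays and neither dark array carried Y-linked signal, so that adaptation and Y-linked signal cannot be told apart. Atf3, a stress-induced factor that ranged from 49.2 to 113.7 over all arrays, had 60.2 and 49.2 (dark) against 110.7 and 92.1 (light) in the inner plexiform layer, a difference of -0.89 ± 0.27 (adjusted p = 0.0981). Jund, Egr3, Klf2, Klf4, Dusp5, Ccn1 and Bdnf also had an unadjusted p under 0.05 there, with adjusted p-values of 0.0919 to 0.246.

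The members' median difference in the inner plexiform layer was -0.39, against -0.03 over all genes tested. In the average over tissues it was -0.10, with 29 of 33 members lower in the dark, against -0.01 over all genes, of which 47.7% were higher in the dark. Medians elsewhere were -0.03 in the whole retina and -0.06, -0.17 and -0.11 in the photoreceptor, inner nuclear and ganglion cell layers. Arrays with Y-linked signal were all light-adapted. They included both light arrays of the ganglion cell layer, where adaptation and Y-linked signal cannot be told apart. None of them came from the inner plexiform layer. The fit without them therefore left the Klf10 difference at -1.57, while its adjusted p became 0.0656 with fewer arrays behind the spread. Adaptation also differed in length (3 h against 6 h), so that light and time in it cannot be told apart.

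**Figure D2:**
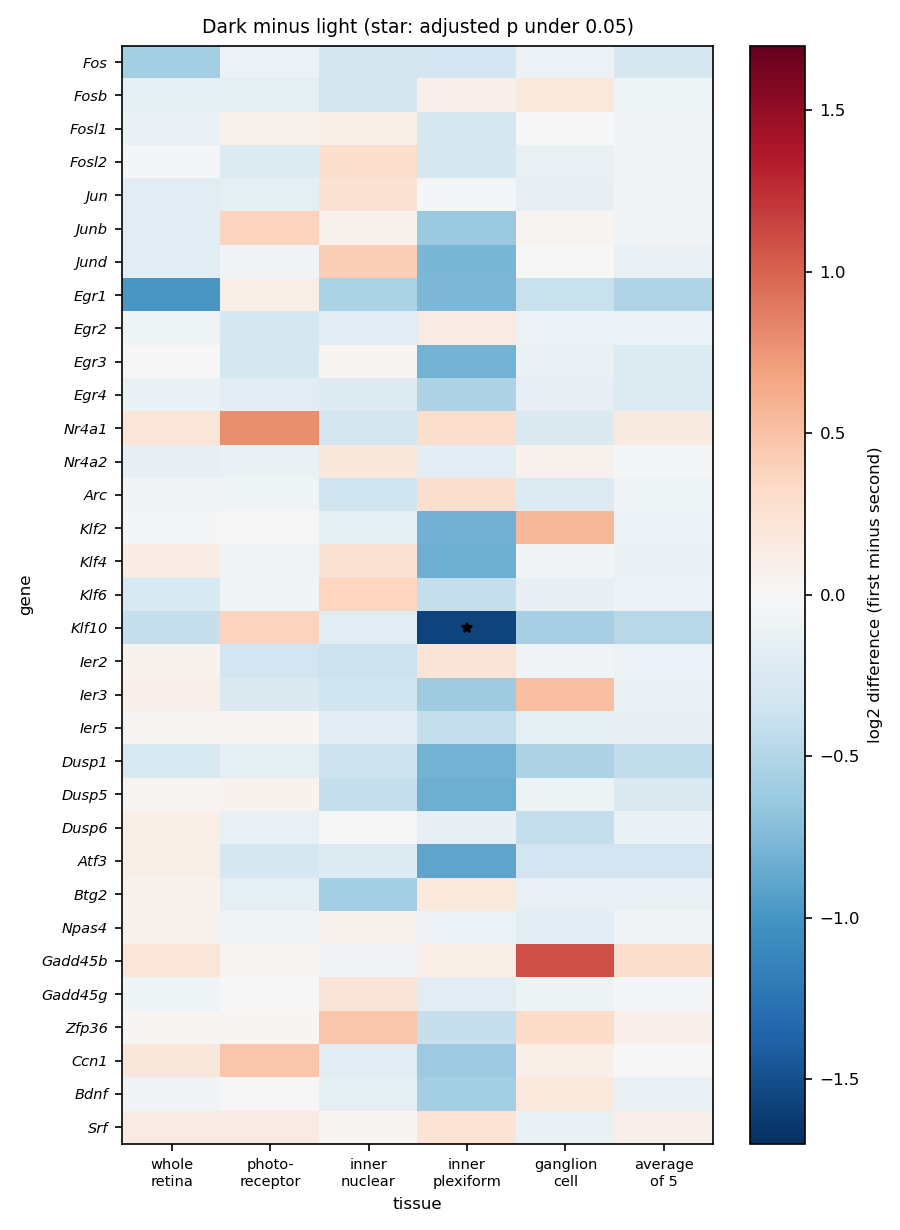
Dark minus light difference (log2, colour: blue lower and red higher in the dark) of the 33 tested members, 1 row each, in the 5 tissues and their average, with a star on called values. Klf10 in the inner plexiform layer, at -1.57, carries the only star, and Gadd45b in the ganglion cell layer, at 1.10, is the reddest cell.

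Between layers, most calls of members were against the inner plexiform layer. Over all genes too, photoreceptor minus inner plexiform had the largest share called of the layer pairs (21.4%). Compared with the inner plexiform layer, 10 of 33 members were lower in the photoreceptor layer and 0 were higher, against 11.7% of all genes lower and 21.4% called in either direction. The 10 are 3 AP-1 genes (Fosl2, Junb and Jund), Egr3 and Egr4, Klf4 and Klf6, Ier5, and the secreted factors Ccn1 and Bdnf. Junb passed the filter only through the light-adapted arrays of the inner plexiform layer, so its call adds no independent support. In the inner nuclear layer 4 were lower than in the inner plexiform layer (Fosl2, Jun, Jund and Klf4; 3.23% of all genes lower, 4.85% in either direction). In the inner plexiform layer 1, Jund, was higher than in the ganglion cell layer (1.81% of all genes higher, 3.1% in either direction). As each sample is a piece of tissue, fewer cells of a type and less RNA per cell cannot be told apart. These comparisons share arrays, so their calls are not independent.

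Klf4, a zinc-finger factor known in endothelial and epithelial cells, had intensities of 17 and 22.5 (dark) against 16.5 and 19.3 (light) in the whole retina and 28.3 and 35.1 (dark) against 40.3 and 27 (light) in the photoreceptor layer. Klf4 had 36 and 31.9 (dark) against 36.2 and 22.5 (light) in the inner nuclear layer, 90.8 and 56.4 (dark) against 112.8 and 144.1 (light) in the inner plexiform layer and 52.8 and 49 (dark) against 76.7 and 36.1 (light) in the ganglion cell layer. All 4 arrays of the photoreceptor layer and all 4 of the inner nuclear layer lay below all 4 of the inner plexiform layer. The differences from the inner plexiform layer were -1.57 ± 0.25, or 0.338 times its level, in the photoreceptor layer (adjusted p = 0.000384) and -1.62 ± 0.25 in the inner nuclear layer (adjusted p = 0.00214).

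Jund, the least inducible of the Jun family, had intensities of 57.3 and 85 (dark) against 86.4 and 73 (light) in the whole retina and 108.1 and 88.9 (dark) against 98.9 and 105.4 (light) in the photoreceptor layer. Jund had 155.1 and 137.6 (dark) against 105.2 and 113.6 (light) in the inner nuclear layer, 172 and 123.9 (dark) against 223.8 and 280.4 (light) in the inner plexiform layer and 106.9 and 131 (dark) against 128.8 and 109.8 (light) in the ganglion cell layer. Its light-adapted inner plexiform layer arrays were the highest of all 20, and its photoreceptor layer arrays all lay below those of the inner plexiform layer. The photoreceptor layer difference was -0.94 ± 0.16 (adjusted p = 0.000928), that of the inner nuclear layer was -0.60 ± 0.16 (adjusted p = 0.0458), and the inner plexiform minus ganglion cell layer difference was 0.69 ± 0.16 (adjusted p = 0.0334). The inner nuclear layer call was lost in 18 of 30 alternatives, and in 2 others the value turned to 0.00: among dark-adapted arrays alone and without the light arrays of the inner plexiform layer. The call against the ganglion cell layer was lost in 8 of 30 alternatives, among them leaving out dark replicate 1 or light replicate 2 of the inner plexiform layer, or either dark replicate or light replicate 2 of the ganglion cell layer.

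Fosl2, also called Fra-2, had intensities of 65.1 and 52.1 (dark) against 74.9 and 46.5 (light) in the whole retina and 57.6 and 73 (dark) against 83.5 and 69.4 (light) in the photoreceptor layer. Fosl2 had 101.2 and 67.8 (dark) against 70.1 and 64.1 (light) in the inner nuclear layer, 101.8 and 139.2 (dark) against 146.8 and 139.5 (light) in the inner plexiform layer and 89.5 and 81.6 (dark) against 88.3 and 97.9 (light) in the ganglion cell layer. Its 4 inner plexiform layer arrays lay above every other dissected array. Differences from that layer were -0.89 ± 0.18 in the photoreceptor layer (adjusted p = 0.00275) and -0.81 ± 0.18 in the inner nuclear layer (adjusted p = 0.0193).

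Junb, a Jun family member, had intensities of 17.2 and 13 (dark) against 21.3 and 13.4 (light) in the whole retina and 20 and 26.5 (dark) against 16.5 and 19 (light) in the photoreceptor layer. Junb had 29.9 and 17.4 (dark) against 20.4 and 23 (light) in the inner nuclear layer, 29.8 and 30.7 (dark) against 41.5 and 52.6 (light) in the inner plexiform layer and 25.6 and 20.4 (dark) against 29.2 and 16.8 (light) in the ganglion cell layer. Both the photoreceptor layer and the ganglion cell layer arrays lay below those of the inner plexiform layer, and the photoreceptor layer difference was -0.90 ± 0.25 (adjusted p = 0.0166). Junb passed the filter only through its light-adapted inner plexiform layer arrays (41.5 and 52.6), so it was tested only because it is high there. Jun, the main partner of Fos, had intensities of 43.8 and 46.1 (dark) against 58.6 and 44.3 (light) in the whole retina and 45 and 45.5 (dark) against 46 and 55.1 (light) in the photoreceptor layer. Jun had 35 and 42.1 (dark) against 36.4 and 28.8 (light) in the inner nuclear layer, 72.3 and 46.5 (dark) against 50.8 and 68.6 (light) in the inner plexiform layer and 39.7 and 43.2 (dark) against 53.7 and 38.7 (light) in the ganglion cell layer. It was lower in the inner nuclear layer than in the inner plexiform layer, without overlap, by -0.73 ± 0.19 (adjusted p = 0.0329). Fosl1, also called Fra-1, had intensities of 57.9 and 62.8 (dark) against 73.6 and 57.9 (light) in the whole retina and 82 and 85.7 (dark) against 78.7 and 80.7 (light) in the photoreceptor layer. Fosl1 had 109.8 and 92.9 (dark) against 110.5 and 78.8 (light) in the inner nuclear layer, 89.5 and 76.2 (dark) against 90.7 and 111.9 (light) in the inner plexiform layer and 90.3 and 87.6 (dark) against 77.8 and 101.3 (light) in the ganglion cell layer. Its dissected layers overlapped in every pair, and it was called in none of them.

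Egr3, a zinc-finger factor of the Egr family, had intensities of 108.2 and 104.5 (dark) against 121.9 and 92.7 (light) in the whole retina and 110.4 and 125.5 (dark) against 143.6 and 145.1 (light) in the photoreceptor layer. Egr3 had 209.6 and 132.7 (dark) against 162.7 and 163.2 (light) in the inner nuclear layer, 239.1 and 149.2 (dark) against 330.9 and 326.2 (light) in the inner plexiform layer and 172.7 and 143.5 (dark) against 198.3 and 145.9 (light) in the ganglion cell layer. All photoreceptor layer arrays lay below all inner plexiform layer arrays, with a difference of -0.93 ± 0.18 (adjusted p = 0.00174). Egr4, of the same family, had intensities of 15.8 and 27.5 (dark) against 24.9 and 20.5 (light) in the whole retina and 30.1 and 35 (dark) against 33.2 and 41 (light) in the photoreceptor layer. Egr4 had 45.7 and 35.4 (dark) against 47.7 and 46 (light) in the inner nuclear layer, 61.1 and 41.6 (dark) against 100.3 and 52.1 (light) in the inner plexiform layer and 50.4 and 48.5 (dark) against 67.5 and 43.7 (light) in the ganglion cell layer. Its photoreceptor layer arrays also lay below those of the inner plexiform layer, by -0.80 ± 0.24 (adjusted p = 0.023), and below those of the ganglion cell layer, a difference that was not called.

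**Figure D3:**
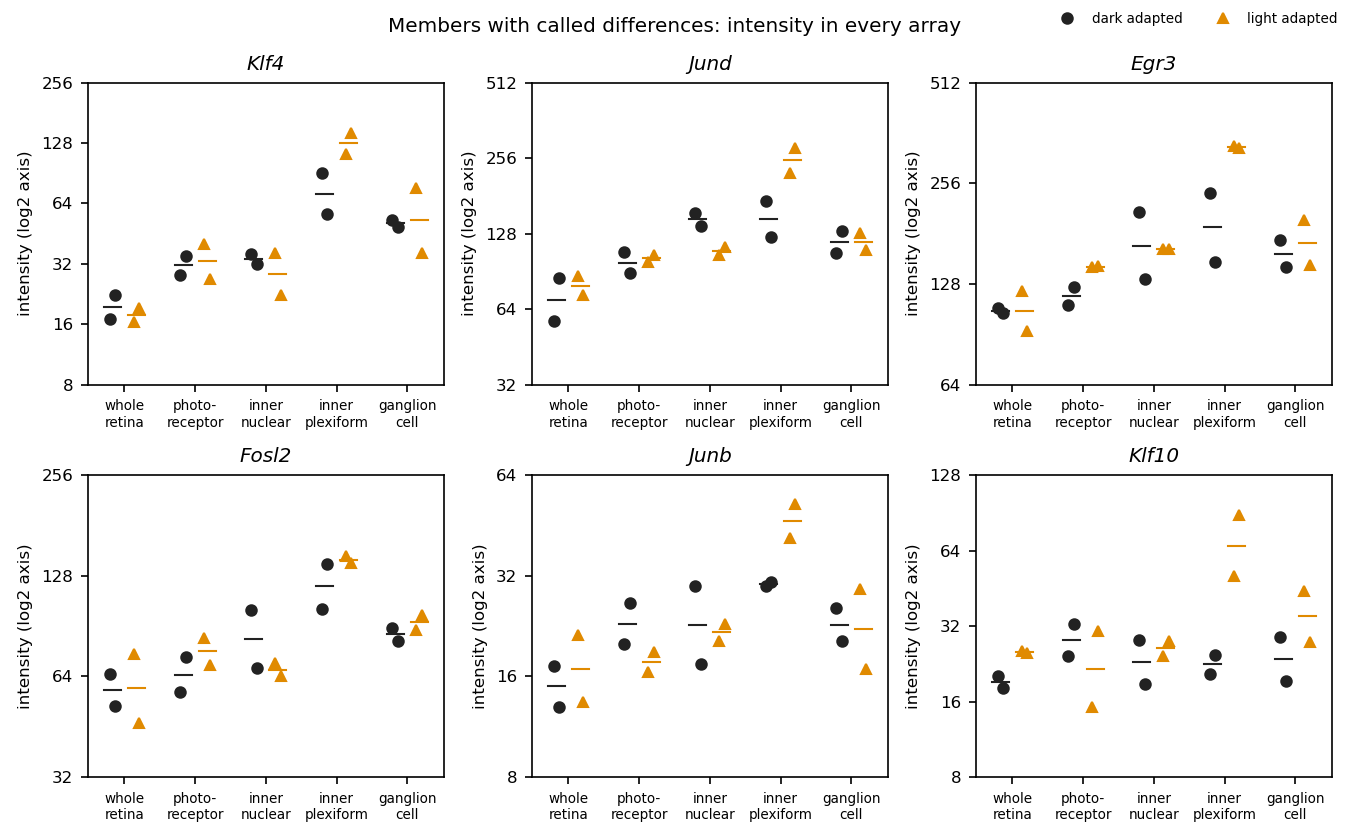
Intensity (vertical, log2 axis) of 6 members in each tissue, dark-adapted (circles) left of light-adapted (triangles), 1 point per array and a line at the geometric mean of the 2 arrays. The 2 light-adapted inner plexiform layer arrays are the highest of the 20 for each of the 6, for example 112.8 and 144.1 for Klf4. Junb passed the filter only through these 2 arrays.

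Klf2, known for its role in endothelial cells, had intensities of 59.9 and 54.2 (dark) against 72 and 47.2 (light) in the whole retina and 83.8 and 73.8 (dark) against 78.4 and 79.7 (light) in the photoreceptor layer. Klf2 had 92.8 and 80.8 (dark) against 110.3 and 85.4 (light) in the inner nuclear layer, 97 and 73 (dark) against 120.7 and 182.9 (light) in the inner plexiform layer and 112.2 and 96 (dark) against 95.3 and 52 (light) in the ganglion cell layer. It was called in no pair of layers, with a photoreceptor minus inner plexiform layer difference of -0.50 ± 0.21 (adjusted p = 0.09). Klf6 ranged from 20.9 to 57.9 over all arrays, and its photoreceptor layer arrays lay below its inner plexiform layer arrays, with a difference of -0.62 ± 0.19 (adjusted p = 0.0295) that lost its call in 11 of 30 alternatives.

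Ier5, an immediate early response gene, had intensities of 29.1 and 16.5 (dark) against 19.9 and 22.7 (light) in the whole retina and 29.9 and 25.8 (dark) against 29.6 and 24.7 (light) in the photoreceptor layer. Ier5 had 37 and 27.6 (dark) against 40.9 and 32 (light) in the inner nuclear layer, 36 and 45.2 (dark) against 63.7 and 45 (light) in the inner plexiform layer and 43.9 and 35.1 (dark) against 42.4 and 45.4 (light) in the ganglion cell layer. Ccn1, a matrix-associated secreted protein, had intensities of 40.4 and 43.1 (dark) against 36.6 and 36.4 (light) in the whole retina and 53 and 46.2 (dark) against 29.9 and 42.8 (light) in the photoreceptor layer. Ccn1 had 44 and 42.3 (dark) against 45 and 53.9 (light) in the inner nuclear layer, 41.2 and 74.8 (dark) against 94.9 and 76.8 (light) in the inner plexiform layer and 60.4 and 49.3 (dark) against 43.8 and 59.1 (light) in the ganglion cell layer. Bdnf, a neurotrophin of retinal neurons, had intensities of 24 and 30.8 (dark) against 29.6 and 27 (light) in the whole retina and 34.5 and 29.7 (dark) against 30.2 and 33.8 (light) in the photoreceptor layer. Bdnf had 49.3 and 28.4 (dark) against 38.7 and 45.4 (light) in the inner nuclear layer, 41.9 and 40.4 (dark) against 60.5 and 62.7 (light) in the inner plexiform layer and 37.4 and 42.6 (dark) against 40.7 and 30.5 (light) in the ganglion cell layer. Ier5 and Bdnf arrays of the photoreceptor layer all lay below those of the inner plexiform layer, while those of Ccn1 overlapped. The differences were -0.76 ± 0.21 for Ier5 (adjusted p = 0.0155), -0.71 ± 0.19 for Ccn1 (adjusted p = 0.0157) and -0.66 ± 0.19 for Bdnf (adjusted p = 0.0195).

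**Figure D4:**
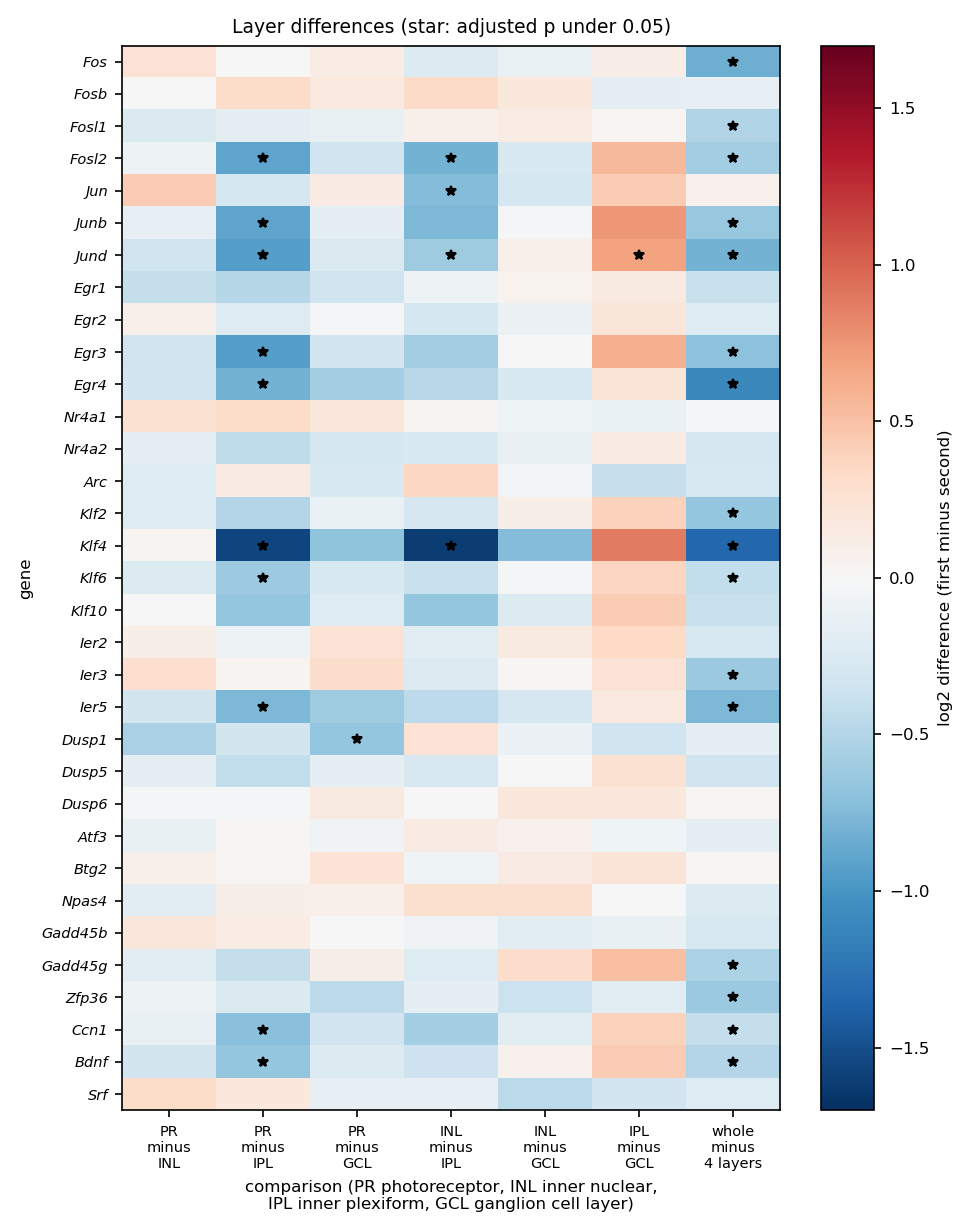
Differences (log2, colour: blue lower and red higher in the first-named tissue) of the 33 tested members, 1 row each, between pairs of layers and between the whole retina and the mean of the 4 layers, with a star on called values. Klf4 is the darkest blue in the photoreceptor and inner nuclear minus inner plexiform layer columns, at -1.57 and -1.62.

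The 2 light-adapted inner plexiform layer arrays were the highest 2 of all 20 for 10 of the 33 members, against 9.89% of all genes. For 18 the highest array was one of them, against 29.1% of all genes. Junb is in both counts and passed the filter only through these 2 arrays, so its place there was fixed in advance. Among light-adapted arrays alone, 10 members were lower in the photoreceptor than in the inner plexiform layer (9.19% of all genes lower) and among dark-adapted arrays alone 0 were (1.25% of all genes lower), with 5 at an unadjusted p under 0.05 by limma (16.6% of all genes). The 10 of the light-adapted arrays included Klf2 and Klf10 in place of Egr4 and Klf6. Junb is also among them, called on the same 2 arrays that let it pass the filter, so its call adds no independent support. The difference of Klf4 was -1.18 ± 0.35 in dark-adapted arrays (adjusted p = 0.0737) and -1.95 ± 0.35 in light-adapted arrays (adjusted p = 0.00197). That of Fosl2 was -0.88 ± 0.26 in dark-adapted arrays (adjusted p = 0.0751) and -0.91 ± 0.26 in light-adapted arrays (adjusted p = 0.0249). That of Ccn1 was -0.17 ± 0.27 in dark-adapted arrays (adjusted p = 0.827) and -1.26 ± 0.27 in light-adapted arrays (adjusted p = 0.00612). When the difference between these effects was tested, 0 members were called: the smallest adjusted p was 0.288 against the photoreceptor layer, 0.305 against the inner nuclear layer and 0.226 against the ganglion cell layer. By limma's unadjusted p under 0.05 the counts were 3, 5 and 4, against 8.85%, 9.09% and 12% of all genes, of which 0.0465%, 0.0398% and 0.0133% were called.

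**Figure D5:**
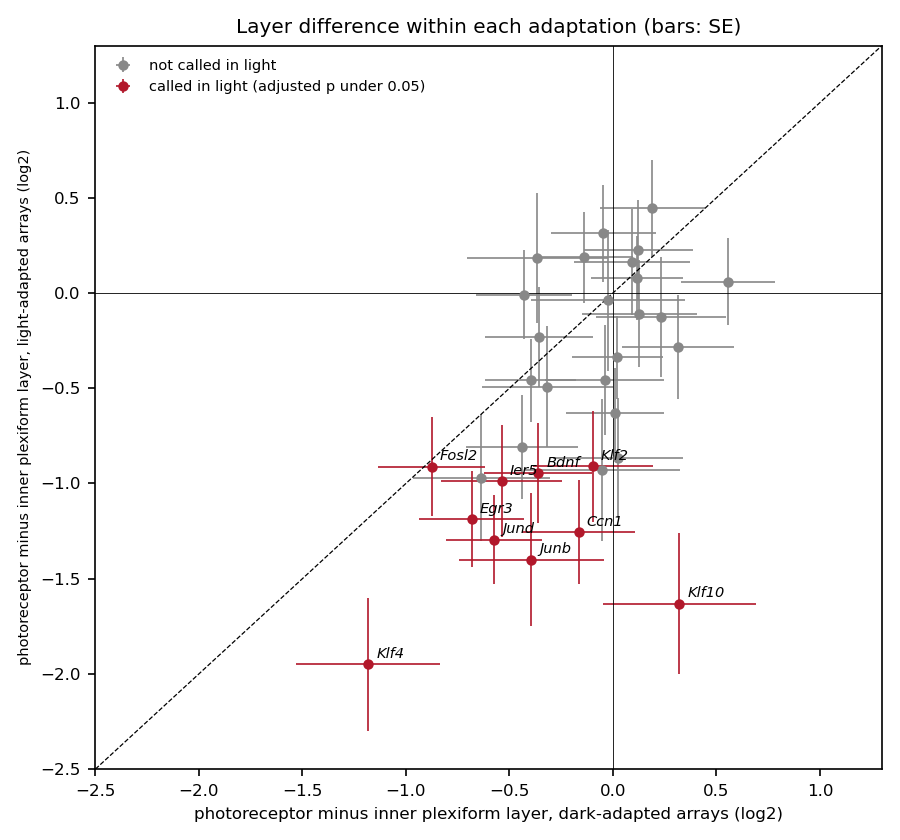
Photoreceptor minus inner plexiform layer difference (log2) of each member in dark-adapted arrays (horizontal) against light-adapted arrays (vertical), with bars for the standard error, members called in light-adapted arrays in red and a dashed line of equal values. Fosl2 lies near that line at -0.88 and -0.91, while Ccn1, at -0.17 and -1.26, lies well below it.

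The calls against the inner plexiform layer rest on few arrays. In the photoreceptor comparison Fosl2, Jund, Egr3 and Klf4 lost theirs in 2 of 30 alternatives each, Junb, Ier5 and Bdnf in 6, Ccn1 in 7 and Egr4 in 8. Without its 2 light-adapted arrays the counts were 0 for the photoreceptor layer, the inner nuclear layer and the ganglion cell layer. Without the 5 arrays with Y-linked signal they were 5, 1 and 0, and the first was also 5 when light-adapted photoreceptor layer replicate 1 was left out.

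Other cell type markers moved with the layers. Vascular markers, all 6 measured and none under the floor on all arrays of either layer, summed to 284.6 to 319.4 in the photoreceptor layer and to 426.8 to 665.7 in the inner plexiform layer. Müller glia markers, also 6, summed to 376.8 to 390.3 in the photoreceptor layer and to 522.0 to 1402.1 in the inner plexiform layer. Within the inner plexiform layer the vascular sum was 476.5 to 665.7 (dark) against 426.8 to 521.1 (light), and the Müller sum was 1091.3 to 1402.1 (dark) against 522.0 to 1014.9 (light). Bipolar cell markers (5 of 6 measured) summed to 349.1 to 374.6 in the photoreceptor layer and to 557.1 to 776.8 in the inner plexiform layer, where the dark arrays (671.3 to 776.8) lay above the light arrays (557.1 to 619.0). Amacrine cell markers, all 6 measured, summed to 384.5 to 432.4 in the photoreceptor layer and to 579.1 to 868.1 in the inner plexiform layer. Ganglion cell markers, all 7 measured, summed to 347.9 to 386.3 in the photoreceptor layer and to 456.9 to 882.3 in the inner plexiform layer. Astrocyte, microglia and pigment epithelium sums overlapped between them. Their part in the members' differences was not tested.

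In the photoreceptor minus ganglion cell layer comparison 1 member was called, Dusp1, which was lower in the photoreceptor layer by -0.65 ± 0.17 (adjusted p = 0.0213), without overlap (3.09% of all genes lower, 7.66% in either direction). It lost the call in 8 of 30 alternatives, among them leaving out dark replicate 2 or light replicate 1 of the photoreceptor layer, or either dark replicate or light replicate 2 of the ganglion cell layer. No member was called between the photoreceptor and inner nuclear layers (5.33% of all genes) or between the inner nuclear and ganglion cell layers (0.458%), with 2 at an unadjusted p under 0.05 in each by limma (15.9% and 7.31% of all genes).

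Whole retina differed from the mean of the 4 dissected layers in 16 of 33 members, all lower, against 28.6% of all genes lower and 48.5% called in either direction. The 16 are Fos, Fosl1, Fosl2, Junb, Jund, Egr3, Egr4, Klf2, Klf4, Klf6, Ier3, Ier5, Gadd45g, Zfp36, Ccn1 and Bdnf. Of these, Junb, Egr4, Klf4, Ier3, Ier5, Gadd45g and Bdnf exceeded the filter level of 5 (log2) in no whole retina array. They were tested only because they are high in dissected arrays, so their calls add no independent support. Fos and Zfp36 exceeded it in only a single whole retina array, so they too needed dissected arrays to pass. The members' median was -0.38, against -0.18 over all genes. Among 395 chemosensory receptor genes tested, most of which have no known role in the retina, the median was -0.37, with 143 lower and 10 higher. Dissected and whole tissue were also handled differently, so tissue and handling cannot be told apart. For 19 members the lowest of the 20 arrays was a whole retina array, against 39% of all genes. They include every called gene that passed the filter only through dissected arrays.

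Klf4 had the lowest difference, -1.34 ± 0.20 (adjusted p = 8.55e-05), but like Egr4 it was tested only through dissected arrays. Egr4 followed with -1.10 ± 0.19 (adjusted p = 0.000266), then Fos with -0.83 ± 0.16 (adjusted p = 0.000582) and Jund with -0.81 ± 0.13 (adjusted p = 0.000192). Each of these kept its call in all 30 alternatives, as did Fosl1 with -0.51 ± 0.12 (adjusted p = 0.00327). The other 11 lost it in 3 or more: Ccn1 in 17, Gadd45g in 9, Klf6 in 7, Junb and Bdnf in 6 each, Fosl2 in 4, and Egr3, Klf2, Ier3, Ier5 and Zfp36 in 3 each. The whole retina arrays of Fosl1, Jund, Egr4 and Gadd45g lay below every dissected array. The count was 8 without replicate 2 of the light-adapted whole retina, 6 without the light arrays of the inner plexiform layer and 7 without the arrays with Y-linked signal.

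Ier3, an early response gene linked to cell survival, had intensities of 17.6 and 15.7 (dark) against 14 and 17.4 (light) in the whole retina and 27.9 and 23.5 (dark) against 33.4 and 27.8 (light) in the photoreceptor layer. Ier3 had 21.8 and 19.3 (dark) against 25.3 and 26.4 (light) in the inner nuclear layer, 29.7 and 16 (dark) against 38 and 29.1 (light) in the inner plexiform layer and 29.4 and 25 (dark) against 16 and 22.7 (light) in the ganglion cell layer. Zfp36, also called tristetraprolin, which speeds the decay of messages with AU-rich ends, had intensities of 28.3 and 28.9 (dark) against 34.9 and 22.8 (light) in the whole retina and 43.2 and 35 (dark) against 37.8 and 38.4 (light) in the photoreceptor layer. Zfp36 had 49.1 and 46.6 (dark) against 36 and 33.3 (light) in the inner nuclear layer, 41 and 38.9 (dark) against 45 and 60.8 (light) in the inner plexiform layer and 48.5 and 70.6 (dark) against 62.7 and 35.2 (light) in the ganglion cell layer. Gadd45g, a relative of Gadd45b, had intensities of 16.5 and 18 (dark) against 17.2 and 19.1 (light) in the whole retina and 22.3 and 24.9 (dark) against 26.8 and 20.7 (light) in the photoreceptor layer. Gadd45g had 34.3 and 24.5 (dark) against 31.1 and 20 (light) in the inner nuclear layer, 37.1 and 23.2 (dark) against 26.9 and 40.8 (light) in the inner plexiform layer and 21.2 and 21.3 (dark) against 22.2 and 23.1 (light) in the ganglion cell layer. The dissected arrays of Ier3 and Zfp36 overlapped with those of the whole retina. Differences were -0.64 ± 0.18 for Ier3 (adjusted p = 0.00776), -0.63 ± 0.16 for Zfp36 (adjusted p = 0.00493) and -0.54 ± 0.18 for Gadd45g (adjusted p = 0.0202).

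Srf, the factor that binds the CArG box, had intensities of 60.4 and 52.6 (dark) against 48.6 and 53.4 (light) in the whole retina and 73 and 66.2 (dark) against 67.3 and 59.5 (light) in the photoreceptor layer. Srf had 60 and 48.8 (dark) against 62.7 and 45 (light) in the inner nuclear layer, 62.8 and 65 (dark) against 72.2 and 40.6 (light) in the inner plexiform layer and 83.4 and 59.9 (dark) against 70.9 and 82 (light) in the ganglion cell layer. Dark and light arrays overlapped in every tissue, as did the layers in every pair, and it was called in no comparison. With it, 14 of the 33 members were called nowhere: Fosb, Egr1, Egr2, Nr4a1, Nr4a2, Arc, Ier2, Dusp5, Dusp6, Atf3, Btg2, Npas4, Gadd45b and Srf. Egr1, Arc and Npas4, widely used as markers of neuronal activity, are among them. For dim members such as Egr1 (16 to 67.6 over all arrays), no change and too little signal cannot be told apart. Of those not yet given, Egr2 ranged from 30.3 to 52.4, Ier2 from 16.1 to 37.6 and Dusp6, an ERK phosphatase, from 21.2 to 50.4. Dusp5, another ERK phosphatase, ranged from 64.4 to 220.5 and Btg2, an antiproliferative gene, from 44.7 to 83.6.

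Genes around the members in the same pathways were read from 4 lists. Tested were 23 regulators, 11 feedback inhibitors, 17 delayed activity-regulated genes and 10 stress genes. None of them was called between dark and light in any tissue. By limma, 1 to 16 of them had an unadjusted p under 0.05 per comparison, against 0.897% to 18.7% of all genes. The 16 were those of the inner plexiform layer, where the share was 18.7% of all genes. There the median was -0.40 for the feedback inhibitors, with 5 of the 16, and -0.07 for the regulators, also with 5. It lay above zero for the other lists, at 0.23 for the delayed genes and 0.28 for the stress genes, with 3 each. Of 23 regulators tested, the kinases and factors that act on these promoters, 5 were higher and 1 lower in the photoreceptor than in the inner plexiform layer, where 21.4% of all genes were called. Mef2c, a calcium-responsive factor, was higher by 1.74 ± 0.22 (adjusted p = 6.12e-05) and Ep300, a histone acetyltransferase, by 1.35 ± 0.34 (adjusted p = 0.0098), while Crtc1, a CREB coactivator, was lower by -0.62 ± 0.13 (adjusted p = 0.00276). Of 11 feedback inhibitors 2 were lower, Dusp2 by -0.76 ± 0.16 (adjusted p = 0.00276) and Sik1 by -0.43 ± 0.14 (adjusted p = 0.0402), and 0 were higher.

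Of 17 delayed activity-regulated genes, 1 was higher and 2 were lower in the photoreceptor than in the inner plexiform layer, where 21.4% of all genes were called. Vgf, a neuropeptide precursor, was at -0.95 ± 0.22 (adjusted p = 0.00573). Nrn1, which promotes neurite growth, was lower in the inner plexiform than in the ganglion cell layer by -2.19 ± 0.24 (adjusted p = 0.000275, with 3.1% of all genes called). Of 10 stress genes 3 were higher and 1 lower in the photoreceptor than in the inner plexiform layer, against the same 21.4% of all genes. Hsp90aa1 was higher by 1.86 ± 0.34 (adjusted p = 0.00128). Whole retina was higher than the layers in 8 regulators and lower in 5, and among the feedback genes it was higher in 1 and lower in 3, where 48.5% of all genes were called.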

How the data were processed

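The deposited files hold linear intensities, 1 for each of 35557 probe sets and 20 arrays. The authors made them with GCRMA, per the submitters' processing notes, which give no version. No source names the scale: the range of the values shows it to be linear, although log2 values had been planned for. Between 11.27% and 14.09% of an array's values lay under 8.

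Lower values were raised to this floor before taking log2. A probe set was kept where at least 2 arrays exceeded 5 (log2). Of all probe sets 21789 had 1 gene symbol, and the one with the highest mean stood for a gene. limma 3.58.1 in R 4.3.3 fitted 10 group means with an intensity trend (10 residual degrees of freedom). Tests were two-sided, adjusted by Benjamini-Hochberg over 15057 genes within a comparison. The fit was tested on simulated data. The number of arrays limits the precision.

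Members and lists were chosen with earlier results of these data known. Every array is given for 10 well-known members and the 15 called with the smallest adjusted p, others by range, and up to 3 genes of each related list. The tests between pairs of dark effects were added after values were seen. Same-numbered replicates were not shown to be paired. Alternatives were quantile normalisation, no filter, averaging the probe sets of a gene, log2(intensity + 16), no trend, a replicate block and subsets of arrays.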

Additional observations from a re-analysis of the deposited data

How the results depend on the processing

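Counts of members called stayed within 1.5 times under quantile normalisation, averaged probe sets and no trend. Without the filter more genes were tested, and the dark minus light count in the inner plexiform layer was 0. With log2(intensity + 16), the inner plexiform minus ganglion cell layer count was 2. The replicate block gave 3 for dark minus light in the inner plexiform layer, 1 for photoreceptor minus inner nuclear layer and 3 for inner plexiform minus ganglion cell layer. Its replicate numbers correlated at 0.006 to 0.479 over 45 group pairs, 32 of them over 0.1. Between dark and light of a tissue they correlated at 0.114 to 0.344 in all 5 tissues, but with 2 numbers a group and no label tying them, they are not shown to pair arrays. Without the 2 light arrays of the inner plexiform layer, counts against that layer were 0 for the photoreceptor layer, 0 for the inner nuclear layer, 0 for the ganglion cell layer and 6 for whole retina against all layers. That fit gives no dark effect for the inner plexiform layer. Without the 5 arrays with Y-linked signal, the counts were 0 (dark minus light, inner plexiform layer, whose arrays are not among the 5, so that the Klf10 difference stayed at -1.57), 5 (photoreceptor minus inner plexiform), 0 (photoreceptor minus ganglion cell), 1 (inner nuclear minus inner plexiform), 0 (inner plexiform minus ganglion cell) and 7 (whole retina). Dark-adapted arrays alone gave 0 for photoreceptor minus inner plexiform (3.57% of all genes called) and 0 for photoreceptor minus ganglion cell (3.47%). They gave 0 for inner nuclear minus inner plexiform (0.0199%), 0 for inner plexiform minus ganglion cell (0.0266%) and 5 for the whole retina (16.5%). Light-adapted arrays alone gave 0 for photoreceptor minus ganglion cell (2.32% of all genes called). They gave 4 for inner plexiform minus ganglion cell (6.48%) and 10 for the whole retina (31.1%). Jund in inner nuclear minus inner plexiform layer turned to 0.001 both without those 2 arrays and in dark-adapted arrays alone. Leaving out 1 array at a time gave 0 to 1 (dark minus light, inner plexiform layer), 5 to 10 (photoreceptor minus inner plexiform), 0 to 1 (photoreceptor minus ganglion cell), 0 to 1 (photoreceptor minus inner nuclear), 1 to 4 (inner nuclear minus inner plexiform), 0 to 3 (inner plexiform minus ganglion cell) and 8 to 17 (whole retina). The inner nuclear minus inner plexiform count was 1 without either light-adapted inner nuclear layer array or dark-adapted replicate 2, and 2 without light-adapted inner plexiform layer replicate 2. In a group left with 1 array, that array is assumed to vary like the others. Of 987 values of called members under alternatives, 804 kept direction and call, 181 kept direction without the call and 2 turned. The cause was not tested.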
